A study of Mus musculus with 40 samples.

Results

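The 41 genes described here encode parts of the mitotic spindle and the kinetochore, and the proteins that time and complete chromosome segregation. They were listed by gene name, with no measured value as a criterion but with earlier results of these data known. All 41 were present among the 18024 genes of the deposited table. By role they comprised 3 markers of dividing cells and their chromatin (Mki67, Top2a, Pbk) and 6 kinetochore proteins (Cenpe, Cenpf, Knl1, Ndc80, Nuf2, Spc25). A group of 9 held proteins that act in the spindle checkpoint or with its target, the anaphase-promoting complex (Bub1, Bub1b, Ttk, Mad2l1, Cdc20, Ube2c). Espl1, Sgo1 and Cdca3, which are part of neither, were placed with them. The 41 also comprised 6 mitotic kinases and partners (Plk1, Aurka, Aurkb, Birc5, Incenp, Cdca8), 4 spindle kinesins (Kif11, Kif20b, Kif2c, Kif4), 7 spindle assembly factors (Tpx2, Nusap1, Aspm, Ckap2, Ckap2l, Hmmr, Dlgap5) and 6 proteins of the central spindle and cytokinesis (Kif20a, Kif23, Prc1, Racgap1, Ect2, Anln).

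RNA was sequenced from pancreas, kidney, ovary, heart and small intestine of C57BL/6j mice, 60 days post-natal and 24 hours after p53 was activated through loss of Mdm2, an E3 ligase that marks p53 for degradation. Each tissue gave 5 libraries of the genotype Mdm2FM/- Cag-CreERTg (FMTg), in which Mdm2 is lost, and 3 libraries of the genotype Mdm2+/- Cag-CreERTg (Tg), which keeps Mdm2. Both groups carried 1 minus allele of Mdm2 and the CreER transgene, whose Cag promoter is broadly active, so the controls were not wild type. The agent that switched on Cre is not given in the sources used here. The 40 libraries came from 13 mice. All 15 Tg libraries came from the same 3 mice, and of the 10 FMTg mice 3 gave 1 tissue only, so the tissues are not independent of each other. RNA was taken from whole frozen tissue, in which fewer dividing cells and less RNA per dividing cell cannot be told apart.

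Mitotic genes are transcribed mainly from late S phase to mitosis, and in quiescent cells they are held silent by the DREAM complex, a repressor built on the Rb relatives p107 and p130. When p53 is active it induces Cdkn1a (p21), an inhibitor of cyclin-dependent kinases, which keeps those Rb relatives unphosphorylated and DREAM assembled. DREAM reaches its targets through the cell cycle genes homology region (CHR), whose canonical letters are TTTGAA, while NF-Y, an activator of the same genes, binds CCAAT boxes. In healthy adult mice the crypts of the small intestine divide constantly and the granulosa cells of growing ovarian follicles divide in cycles, whereas most cells of heart, kidney and exocrine pancreas rarely divide.

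The letters TTTGAA were frequent in the promoters of these genes. RefSeq promoter windows (GRCm38.p6, 250 bases before the transcription start to 50 after it) matched 35 of the 41 genes by name. TTTGAA was present on either strand in 28 of the 35 windows (80%), against 15.38% of 13801 genes of the table with a window. Within 50 bases of the start it was present in 25 of 35 (71.43%), against 3.906% of those genes. A CCAAT box on either strand was present in 26 of 35 (74.29%), against 42.01%, and both motifs in 23 of 35 (65.71%), against 6.079%. Of 85 other mitotic genes with a window, 31 (36.47%) held TTTGAA and 22 (25.88%) both motifs. The distance of 50 bases was chosen after the positions had been seen, and the matches describe letters, not binding.

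In some members TTTGAA lay after the start, for example at base 3 in Cenpf and base 31 in Plk1. Each of the 6 genes below has at least 1 copy wholly upstream, though Ckap2l has another at base 42. The 6 genes came from the members of smallest p in ovary or small intestine, or named in every tissue. They do not show the range of arrangements. The 120 bases upstream of the start are given for each gene. Each is written 5′ to 3′ on the strand of its gene, with TTTGAA and CCAAT on either strand in capitals (on the opposite strand they read TTCAAA and ATTGG). No CHR and CCAAT match overlapped in these stretches.
Mki67, chr7:135716380-135716499, minus strand: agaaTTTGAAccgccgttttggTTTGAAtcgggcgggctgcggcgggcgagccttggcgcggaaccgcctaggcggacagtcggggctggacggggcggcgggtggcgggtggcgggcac
Ckap2, chr8:22185820-22185939, minus strand: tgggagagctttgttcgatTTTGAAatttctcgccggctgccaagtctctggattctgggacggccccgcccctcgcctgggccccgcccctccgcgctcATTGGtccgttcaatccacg
Ckap2l, chr2:129297213-129297332, minus strand: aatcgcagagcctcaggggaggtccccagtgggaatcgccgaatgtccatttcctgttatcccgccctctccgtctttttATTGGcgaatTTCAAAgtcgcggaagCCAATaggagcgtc
Top2a, chr11:99024190-99024309, minus strand: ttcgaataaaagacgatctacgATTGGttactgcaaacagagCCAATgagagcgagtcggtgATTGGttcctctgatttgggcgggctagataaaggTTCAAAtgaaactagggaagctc
Cdc20, chr4:118437344-118437463, minus strand: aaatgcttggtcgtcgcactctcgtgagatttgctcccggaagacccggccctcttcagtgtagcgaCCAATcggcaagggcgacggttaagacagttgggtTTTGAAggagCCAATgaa
Ube2c, chr2:164769809-164769928, plus strand: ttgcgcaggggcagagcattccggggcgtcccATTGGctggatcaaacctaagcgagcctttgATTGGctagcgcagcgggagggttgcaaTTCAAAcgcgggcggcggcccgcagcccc
The Ckap2l, Top2a, Cdc20 and Ube2c stretches have the motif close to the start with a CCAAT box beside it. In Mki67 TTTGAA occurs as a pair far from the start. The CCAAT boxes of Mki67, at bases −188, −166 and −141, lie just upstream of the stretch printed. In Ckap2 TTTGAA occurs as 1 copy far from the start.

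Libraries held 7.155 to 29.03 M recovered reads on genes, and pancreas libraries were the shallowest (7.155 to 13.86 M). FMTg replicates 4 and 5 stood apart in all 5 tissues: both had more genes of the table without reads than any other library of their tissue (1572 to 2770 against 694 to 1673 outside pancreas, 4087 and 6020 against 1559 to 2618 in pancreas). In kidney, ovary, heart and small intestine their log2 values over all genes correlated more closely with each other (Pearson r of 0.9885, 0.9678, 0.9597 and 0.9791) than either did with FMTg replicates 1 to 3 of the tissue (at most 0.9783, 0.9589, 0.9371 and 0.95). This did not hold in pancreas, where they correlated at 0.8882 with each other and at up to 0.9467 with replicates 1 to 3. The correlation between tissues of the same mouse, as limma estimated it across genes, was 0.249 over all 40 libraries and 0.045 without FMTg replicates 4 and 5. In pancreas 25 and 10 of the 41 genes had no read in replicates 4 and 5, and only 225 and 614 reads in all fell on the 41 genes. In Tg ovary replicate 1, mRNAs of pancreatic acinar enzymes took 24.2% of the reads, against at most 5.15% in the other ovary libraries. Exons of 10 members overlap another gene in the annotation, the most in Kif20a (29.3% of its exon bases, shared with Cdc23) and Ube2c (22.77%, shared with Tnnc2), and counting by strand is not given in the sources used here. Values below are normalised reads (reads divided by the size factor of the library) or log2 values (the deposited variance-stabilised scale, on which changes of weakly expressed genes are compressed).

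The control tissues differed in the level of these genes. Among Tg libraries the small intestine had the highest mean for 39 of the 41 genes and the ovary the second highest for 38. Kidney was lowest for 30 and heart for 11. The median of the 41 Tg means was 7.98 log2 in small intestine, 6.67 in ovary, 5.57 in pancreas, 5.02 in heart and 4.54 in kidney. Neighbouring tissues in this order overlapped for many genes: every intestine library was above every ovary library for 21 genes, every ovary above every pancreas library for 22, every pancreas above every heart library for 19, and every heart above every kidney library for 13.

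**Figure D1:**
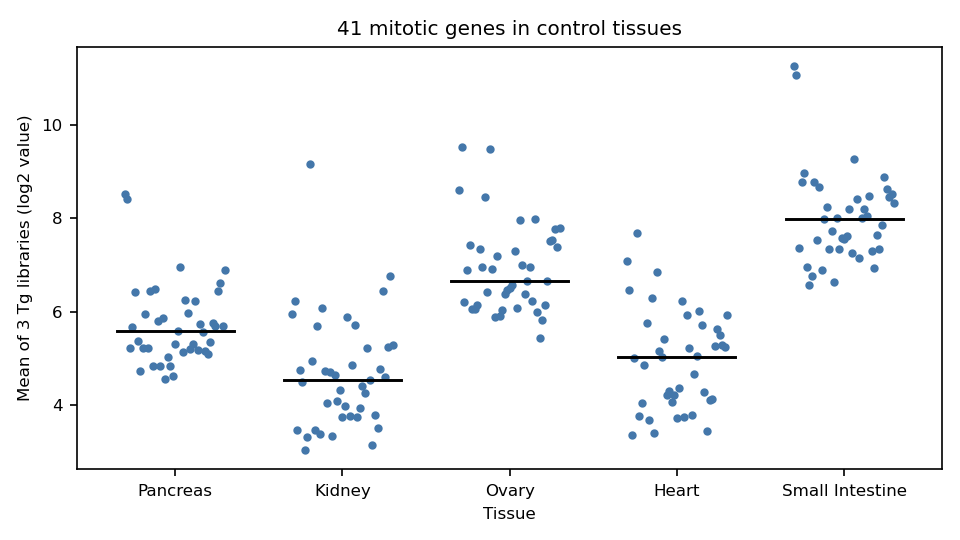
Each point is 1 of the 41 genes, as its mean log2 value over 3 Tg libraries, in each of the 5 control tissues, and the black bar is the median of the 41. The bar falls from 7.98 in small intestine through 6.67 in ovary to 4.54 in kidney.

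Mki67, whose protein coats mitotic chromosomes and marks cycling cells, had 1832.8, 2965.1 and 2706.7 normalised reads in the 3 Tg intestines and 58.1, 39.6 and 74.0 in the kidneys of the same mice. Top2a, the topoisomerase that untangles replicated chromosomes, had 1664.0 to 2486.0 in intestine and 56.3 to 99.2 in kidney. For both genes the lowest intestine library was far above the highest kidney library. In limma across the 15 Tg libraries, small intestine minus the mean of the other 4 tissues was above 0 for all 41 genes, against 48.5% of the genes tested. Of the 41, 40 were higher at a Benjamini-Hochberg adjusted p below 0.05, against 29.8% of all genes, and none was lower, against 27%. The log2 difference was 3.03 ± 0.25 (SE, limma adjusted p = 1.18e-06) for Kif11, the kinesin that pushes spindle poles apart, and 3.41 ± 0.34 (4.49e-06) for Top2a. It was 2.59 ± 0.25 (3.26e-06) for Cdc20, which activates the anaphase-promoting complex, and 2.74 ± 0.26 (3.26e-06) for Aurkb, the kinase of the chromosomal passenger complex. Mki67 had the largest difference of the 41, 3.72 ± 0.40 (7.95e-06).

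Spc25 and Mad2l1 did not follow the common order. Spc25, a subunit of the NDC80 kinetochore complex, had 444.1, 666.6 and 629.6 normalised reads in Tg kidney and 101.7 to 102.0 in intestine, and its difference of 0.41 ± 0.19 missed the threshold (limma adjusted p = 0.0816). Mad2l1, the checkpoint protein MAD2, had 573.9, 735.0 and 869.1 in Tg ovary against 210.4 to 283.8 in intestine. Its difference still passed, at 0.75 ± 0.27 (adjusted p = 0.0314). Of 102 other mitotic genes (cohesin, condensin, other centromere proteins, anaphase-promoting complex subunits and the like), 66 were higher and 11 lower in small intestine.

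After Mdm2 loss, no member reached an adjusted p below 0.05 in any of the 5 tissues taken singly, and the ovary had the largest median difference. FMTg means were above Tg means for 40 of 41 genes in ovary, 37 in heart, 36 in small intestine, 23 in kidney and 8 in pancreas. The same was true of 47.1%, 48.6%, 42.3%, 42.5% and 45.4% of all genes tested in those tissues. The median change of the 41 was 0.84 log2 in ovary, 0.34 in heart, 0.22 in small intestine, 0.08 in kidney and −0.56 in pancreas (−0.06 in small intestine and 0.50 in pancreas without FMTg replicates 4 and 5), while the median of all genes lay between −0.05 and −0.01. At an unadjusted p below 0.05, 22 members were higher in ovary, 5 in kidney, 1 in heart, 1 in small intestine and 0 in pancreas, against 4.43%, 4.37%, 3.27%, 1.43% and 4.86% of all genes. No member was lower at that level in any tissue, where 1.93%, 3.94%, 3.06%, 0.975% and 3.56% of all genes were. Calls at adjusted p below 0.05 were rare for all genes: 0% higher in ovary, 0.603% in kidney, 0.019% in heart, 0% in small intestine and 0.419% in pancreas. With voom, which models the recovered reads, 0 members were called in any tissue and 15, 4, 0, 1 and 0 were higher at an unadjusted p below 0.05, in the same order, with 1 lower in kidney, against 3.39%, 4.33%, 2.26%, 1.22% and 3.98% of all genes higher. Without FMTg replicates 4 and 5 the counts were 24, 5, 3, 1 and 7, against 3.83%, 4.81%, 3.31%, 1.04% and 8.39%. The p-values of a single tissue rest on the spread between its 8 mice. Those of the models of 40 libraries rest on the spread between libraries, with a single correlation estimated for libraries of the same mouse. Their degrees of freedom count libraries and not the 13 mice, so these p-values can be too small for a comparison of mice.

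**Figure D2:**
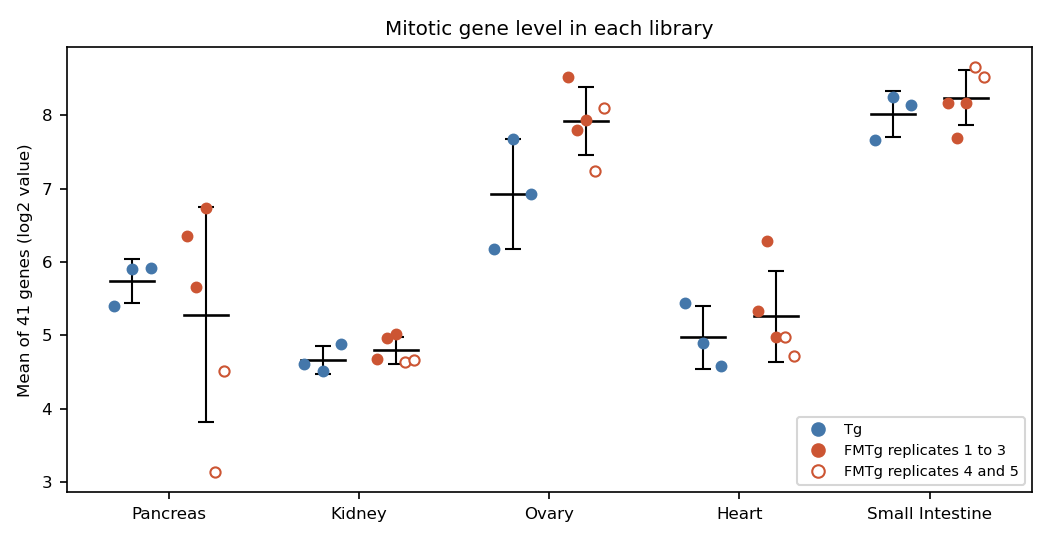
Mean log2 value of the 41 genes in each library (y axis) by tissue (x axis); blue points are Tg, filled red points FMTg replicates 1 to 3, and open red points FMTg replicates 4 and 5; bars are the mean and SD of a group (3 Tg, 5 FMTg). In ovary the highest Tg library lies at 7.68 and the FMTg libraries at 7.25 to 8.52, and in pancreas the 2 open points lie at 3.13 and 4.52, below all others.

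**Figure D3:**
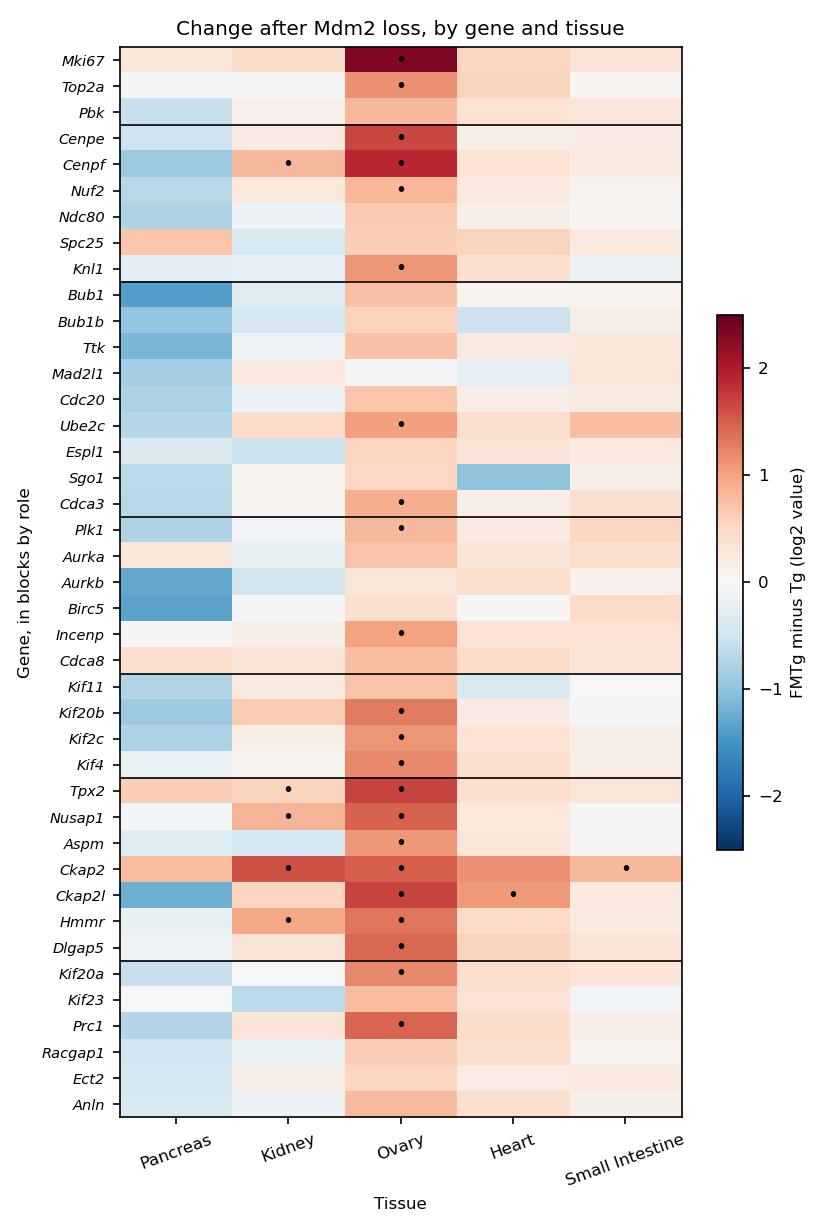
FMTg minus Tg difference in log2 value (colour; red higher, blue lower in FMTg) for each of the 41 genes (rows, in blocks by role) in each tissue (columns); a dot marks an unadjusted limma p below 0.05. The ovary column is red in 40 of 41 rows and holds 22 of the 29 dots, and the pancreas column, with all 8 libraries, is blue in 33 rows.

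In ovary the mean level of the 41 genes was 6.17, 7.68 and 6.93 log2 in the 3 Tg libraries and 8.52, 7.80, 7.93, 7.25 and 8.09 in the 5 FMTg libraries. The groups overlapped: Tg replicate 2 was above FMTg replicate 4. The libraries ranked nearly all members alike, with Tg replicate 1 the lowest library for 39 genes and FMTg replicate 1 the highest for 38. Every FMTg library was above every Tg library for 6 members (Mki67, Dlgap5, Ckap2, Tpx2, Prc1, Nusap1), against 3.43% of all genes.

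**Figure D4:**
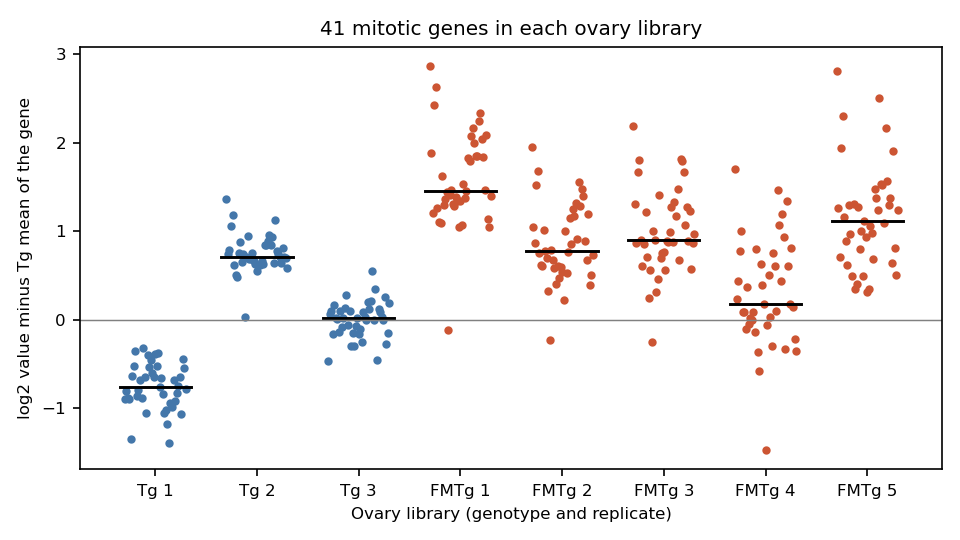
Each point is 1 of the 41 genes in 1 ovary library (x axis), as its log2 value minus the Tg mean of that gene (y axis); black bars are medians of the 41. The points of Tg replicate 1 lie lowest and those of FMTg replicate 1 highest, and the clouds of Tg replicate 2 and FMTg replicate 4 overlap.

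Mki67 showed the largest difference of the members in ovary. It had 203.4, 991.8 and 274.4 normalised reads in Tg and 2827.3, 1501.5, 1769.7, 1261.5 and 2713.9 in FMTg, so that the lowest FMTg library was above the highest Tg library. The log2 change was 2.31 ± 0.49 (SE, limma adjusted p = 0.326), or 4.94-fold on the variance-stabilised scale. Top2a had 414.4, 1221.3 and 760.3 in Tg and 2709.8, 1510.1, 1807.1, 861.4 and 1751.5 in FMTg, with FMTg replicate 4 inside the Tg range (1.15 ± 0.40, adjusted p = 0.637). Pbk, a mitotic kinase, differed by 0.82 ± 0.37, with an adjusted p of 0.784.

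The 6 kinetochore genes all had higher FMTg means in ovary, with a median change of 0.97 log2, and 4 were higher at an unadjusted p below 0.05. Cenpe, the kinesin that carries chromosomes to the spindle equator, had 57.8, 241.5 and 100.4 normalised reads in Tg and 632.8, 334.9, 373.0, 198.0 and 451.3 in FMTg (1.67 ± 0.47, limma adjusted p = 0.474). Cenpf, a large protein of the outer kinetochore, had 61.5, 386.3 and 187.4 in Tg and 1059.5, 548.4, 598.0, 340.0 and 842.9 in FMTg (1.88 ± 0.54, 0.494). In both, only FMTg replicate 4 fell below Tg replicate 2. Knl1, the scaffold that recruits the checkpoint kinase Bub1, had 82.9, 267.9 and 167.3 against 203.5 to 491.7. The NDC80 complex subunits, which grip microtubules, were closer: Nuf2 differed by 0.84 ± 0.37, Ndc80 by 0.66 ± 0.32 and Spc25 by 0.61 ± 0.33.

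The 7 spindle assembly genes formed the role group with the largest median change in ovary, 1.48 log2, and all 7 were higher at an unadjusted p below 0.05. Dlgap5 (HURP), which stabilises microtubules near chromosomes, had 33.9, 112.8 and 69.4 normalised reads in Tg and 286.2, 181.7, 143.0, 174.6 and 168.3 in FMTg (1.43 ± 0.37, limma adjusted p = 0.411). Ckap2, a microtubule-binding protein of spindle poles, had 26.4, 93.6 and 75.3 in Tg and 225.8, 182.5, 219.4, 140.1 and 130.1 in FMTg (1.50 ± 0.39, 0.411). In neither gene did the groups overlap. Its relative Ckap2l had 21.3, 88.8 and 25.9 in Tg and 200.9, 99.9, 144.6, 77.2 and 189.8 in FMTg, with an overlap through FMTg replicate 4 (1.69 ± 0.48, 0.479). Tpx2, which activates Aurora A on the spindle, had 49.0, 235.9 and 137.2 in Tg and 551.4, 272.9, 273.8, 336.3 and 697.3 in FMTg, with no overlap (1.70 ± 0.49, 0.497). Nusap1, Hmmr and Aspm differed by 1.48 ± 0.48, 1.35 ± 0.60 and 1.08 ± 0.45.

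The 4 spindle kinesins had a median change of 1.15 log2 in ovary, and 3 were higher at an unadjusted p below 0.05. Kif20b, a plus-end directed kinesin of cytokinesis, had 65.3, 223.2 and 121.3 normalised reads in Tg and 449.0, 278.1, 302.3, 209.5 and 351.0 in FMTg (1.30 ± 0.38, limma adjusted p = 0.494). Kif4, which binds condensing chromosomes, differed by 1.20 ± 0.50, Kif2c, which takes microtubules apart at centromeres, by 1.10 ± 0.44, and Kif11 by 0.72 ± 0.40. In Kif20b as in Cenpe, FMTg replicate 4 was the only FMTg library inside the Tg range.

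The 6 central spindle and cytokinesis genes had a median change of 0.78 log2 in ovary, with all 6 FMTg means higher and 2 at an unadjusted p below 0.05. Prc1, which bundles the microtubules of the midzone, had 82.9, 320.7 and 217.5 normalised reads in Tg and 786.4, 422.7, 431.5, 321.6 and 696.1 in FMTg (1.45 ± 0.44, limma adjusted p = 0.515). The lowest FMTg library was just above the highest Tg library. Kif20a, the kinesin that carries the passenger complex to the midzone, differed by 1.20 ± 0.37 (0.539). Kif23 and Racgap1, which together form centralspindlin, differed by 0.77 ± 0.34 and 0.61 ± 0.31, the exchange factor Ect2 by 0.54 ± 0.35 and the ring scaffold anillin (Anln) by 0.80 ± 0.43.

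The group of mitotic kinases and the passenger complex and the checkpoint group showed smaller differences in ovary, with medians of 0.73 and 0.70 log2. Incenp, the scaffold of the passenger complex, had 115.5, 236.7 and 126.3 normalised reads in Tg and 451.6, 310.0, 285.2, 217.8 and 322.4 in FMTg (1.00 ± 0.29, limma adjusted p = 0.508). Its catalytic partner Aurkb had 62.8, 126.4 and 74.4 in Tg and 223.2, 125.7, 147.9, 26.6 and 106.3 in FMTg, and FMTg replicate 4 was the lowest library (0.30 ± 0.57, 0.922). The 95% interval of the Aurkb change, −0.99 to 1.60 log2, leaves its direction undetermined. Plk1, a kinase needed at many steps of mitosis, had 49.0, 126.4 and 73.6 in Tg and 206.1, 109.3, 129.2, 103.8 and 175.5 in FMTg (0.81 ± 0.35, 0.768).

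In the checkpoint group of 9, Bub1, a kinase bound to unattached kinetochores, had 65.3, 220.8 and 110.4 normalised reads in Tg ovary and 296.7, 206.6, 196.6, 113.5 and 235.2 in FMTg (0.74 ± 0.41, limma adjusted p = 0.828). Cdc20 had 70.3, 190.4 and 108.7 in Tg and 312.5, 201.5, 234.8, 102.9 and 152.8 in FMTg (0.70 ± 0.40, 0.833). In both genes Tg replicate 2 lay inside the FMTg range. Ube2c, the ubiquitin-conjugating enzyme of the anaphase-promoting complex, and Cdca3 were the 2 of the 9 higher at an unadjusted p below 0.05 (1.02 ± 0.43 and 0.91 ± 0.37). Mad2l1 was the exception in direction: it had 573.9, 735.0 and 869.1 in Tg and 659.7, 609.6, 599.7, 764.5 and 912.2 in FMTg. Its change of −0.03 ± 0.19 had a 95% interval of −0.46 to 0.40 log2, so a doubling lies outside it.

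Markers of ovarian cell types also differed between these libraries. Granulosa genes summed to 6653.1, 20303.6 and 11380.1 normalised reads in the Tg libraries and 27867.8, 14658.1, 9281.7, 18273.8 and 26861.9 in FMTg, with 9 of 9 means higher and a median change of 0.61 log2. Oocyte genes summed to 415.7, 1852.4 and 1200.3 in Tg and 825.5 to 3114.8 in FMTg, with 10 of 10 means higher (median 0.73). Tg replicate 1 was the lowest library and FMTg replicate 1 the highest for both lists, as for the mitotic genes. FMTg replicate 3 did not follow the mitotic genes. Its granulosa (9281.7) and oocyte (825.5) sums were below those of Tg replicates 2 and 3, while its mitotic mean of 7.93 log2 was above every Tg library. Luteal and theca genes summed to 30977.7 to 56938.1 in Tg and 22847.1 to 27076.6 in FMTg, with 1 of 8 means higher (median −0.84). Adipocyte genes were higher in 6 of 6 (1612.4 to 3081.5 in Tg, 2902.4 to 44080.1 in FMTg). None of these markers was called, none of the lists was at 0 in any of the libraries, and their part in the result was not tested.

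The ovary values depended on the control libraries. Without Tg replicate 1, the library with the most acinar reads, the median change was 0.51 log2 and 12 members were higher at an unadjusted p below 0.05, against 2.35% of all genes. Without Tg replicate 2 the median was 1.21 and 34 members were, against 4.3%. Without Tg replicate 3 the number was 14 (4.54% of all genes), and without FMTg replicate 1 it was also 14 (4.1%). Without FMTg replicates 4 and 5 the median was 1.07 and the number 24. Across these leave-outs 40 or 41 of the 41 means stayed higher in FMTg and none was called. A joint model of all 40 libraries gave 9 at an unadjusted p below 0.05, against 4.55% of all genes, and called Mki67 (2.40, limma adjusted p = 0.0151), against 0.365% of all genes called higher.

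In kidney 5 members were higher at an unadjusted p below 0.05, most of them spindle assembly genes. Ckap2 had 11.8, 17.4 and 25.2 normalised reads in Tg and 76.5, 117.9, 50.8, 45.8 and 49.5 in FMTg, with every FMTg library above every Tg library (1.59 ± 0.33, limma adjusted p = 0.103). Nusap1, which bundles spindle microtubules, had 12.6, 11.9 and 15.7 in Tg and 16.1, 23.6, 25.9, 49.0 and 35.8 in FMTg (0.85 ± 0.30, 0.543). Cenpf had 13.3, 15.9 and 21.3 in Tg and 22.7, 49.4, 51.7, 27.8 and 24.8 in FMTg (0.82 ± 0.30, 0.556). These 3 were the members without overlap in kidney, against 4.17% of all genes.

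Hmmr, a spindle pole protein, had 11.8, 4.8 and 9.4 in Tg kidney and 11.4, 25.9, 18.7, 25.1 and 28.1 in FMTg (0.96 ± 0.30, limma adjusted p = 0.444), and Tpx2 had 12.6, 15.9 and 18.1 against 16.7 to 33.6 (0.56 ± 0.25, 0.564). With Ckap2, Nusap1 and Cenpf they made up the 5 higher at an unadjusted p below 0.05, and 4 of the 5 are spindle assembly genes (6 of 7 means higher, median 0.56). The other role groups had medians between −0.10 and 0.18. Kif23 had 73.0, 74.5 and 98.4 in Tg and 60.4, 60.1, 78.5, 31.6 and 29.2 in FMTg (−0.67 ± 0.31, 0.564). Mki67 (0.46 ± 0.32), Aurkb (−0.46 ± 0.34), Bub1 (−0.30 ± 0.45), Cdc20 (−0.16 ± 0.35), Plk1 (−0.06 ± 0.25) and Top2a (−0.03 ± 0.25) were within the spread of the libraries. The number at an unadjusted p below 0.05 was 2 of 41 without Tg replicate 1, 1 without Tg replicate 2 and 1 in the joint model of 40 libraries, against 3.11%, 2.99% and 2.72% of all genes, so in these settings the share of members was near that of all genes. The median change of the 41 lay between 0.03 (without Tg replicate 2) and 0.18 (without Tg replicate 3) over the leave-outs.

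In small intestine, the tissue with the highest control levels, 36 means were higher in FMTg, and Ckap2 alone was higher at an unadjusted p below 0.05 and without overlap (against 1.69% of all genes without overlap). It had 135.7, 156.0 and 161.0 normalised reads in Tg and 238.3, 208.1, 289.5, 335.5 and 285.6 in FMTg (0.81 ± 0.19, limma adjusted p = 0.917). Mki67 had 1832.8, 2965.1 and 2706.7 in Tg and 2887.6, 1516.3, 2575.0, 5329.6 and 4622.1 in FMTg (0.33 ± 0.39, 0.990). Its 2 highest libraries were FMTg replicates 4 and 5, and its lowest was FMTg replicate 2. Top2a had 1664.0, 2486.0 and 2379.1 in Tg and 1813.0 to 2506.0 in FMTg (0.05 ± 0.17), and the 95% interval of −0.34 to 0.44 log2 leaves a doubling and a halving outside.

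Ube2c had 114.8, 187.0 and 175.2 in Tg intestine and 224.2, 119.6, 201.3, 445.7 and 560.9 in FMTg (0.76 ± 0.47, limma adjusted p = 0.990), and Plk1 had 105.6, 209.0 and 172.4 against 177.5, 104.1, 173.9, 411.7 and 471.7 (0.54 ± 0.49). Both were high in the same 2 FMTg libraries. Incenp (0.36 ± 0.25), Cdca8 (0.33 ± 0.27), Pbk (0.30 ± 0.22), Spc25 (0.25 ± 0.21), Cdc20 (0.22 ± 0.31), Aurkb (0.11 ± 0.21) and Bub1 (0.08 ± 0.27) differed by less than 2 standard errors. FMTg replicates 4 and 5 were the highest intestine libraries for 21 and 13 members. Without both the median change was −0.06 log2 and 18 means were higher, against 53.4% of all genes. With weights estimated for each library it was 0.03 and 22, against 49.4%. The median was 0.06 without Tg replicate 1, 0.10 without FMTg replicate 4 alone and 0.35 without FMTg replicate 2. Crypt marker genes summed to 8516.7 to 11296.2 in Tg and 8886.7 to 11843.9 in FMTg, with 3 of 8 means higher (median −0.09), none called.

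In heart, 37 means were higher in FMTg with a median change of 0.34 log2, and 1 library carried much of it. FMTg replicate 2 was the highest library for 37 of the 41 genes. Without it the median was 0.09 and 26 means were higher, against 46.7% of all genes, and the median was 0.14 without Tg replicate 3, 0.53 without Tg replicate 1 and 0.57 without FMTg replicates 4 and 5. Ckap2l, with 8.4, 3.0 and 5.7 normalised reads in Tg and 15, 28.6, 13.0, 8.3 and 24.6 in FMTg, was the 1 member higher at an unadjusted p below 0.05 (1.06 ± 0.42, limma adjusted p = 0.760). Ckap2 had 21.6, 11.1 and 10.4 in Tg and 40.4, 97.5, 33.9, 14.4 and 31.6 in FMTg (1.14 ± 0.51, 0.760). In both, 4 of the 5 FMTg libraries were above every Tg library. No member was free of overlap in heart, against 3.42% of all genes.

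Mki67 had 183.7, 145.7 and 82.3 in Tg heart and 159.9, 294.2, 121.7, 207.5 and 214.7 in FMTg (0.53 ± 0.34, limma adjusted p = 0.760). Top2a had 168.7, 53.6 and 59.6 in Tg and 192.3, 422.7, 86.1, 33.3 and 114.9 in FMTg (0.56 ± 0.73, 0.836). FMTg replicate 2 was the highest for both. Dlgap5 (0.55 ± 0.40), Kif20a (0.44 ± 0.35), Aurkb (0.43 ± 0.53), Plk1 (0.20 ± 0.49), Cdc20 (0.16 ± 0.47) and Bub1 (0.09 ± 0.84) were within the spread. Sgo1, the protector of centromeric cohesin, had 20.6, 9.1 and 10.4 in Tg and 6.3, 24.0, 4.3, 1.5 and 0.0 in FMTg (−1.0 ± 0.69, 0.762). Macrophage genes summed to 3117.5 to 4541.8 in Tg and 5254.7 to 12693.6 in FMTg, with 6 of 6 means higher (median 1.11). Endothelial (5 of 5) and adipocyte (6 of 6) means were also higher, but neutrophil (0 of 4) and cardiomyocyte (2 of 7) means mostly lower. In FMTg replicate 2 cardiomyocyte genes summed to 245742, against 534352 to 956201 in the other heart libraries. Endothelial genes summed to 51955.8 there, against at most 31355.1. Neutrophil genes, lower in the FMTg means, were highest in that same library, at 12531.1 against at most 6061.1 in the other heart libraries. Macrophage genes were also highest in it (12693.6). None of these markers was called, and their part in the result was not tested.

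In pancreas the direction turned with 2 libraries, of which FMTg replicate 4 was the shallowest of the tissue (7.155 M reads) and FMTg replicate 5 among the deepest (12.71 M). Both had smaller size factors (0.162 and 0.349) than the other pancreas libraries (0.388 to 0.612), and the most genes without reads (6020 and 4087). Over all 8 libraries the median change was −0.56 log2 and 33 of 41 means were lower in FMTg. No member was free of overlap, against 4.68% of all genes. FMTg replicates 4 and 5 were the 2 lowest libraries in mean level, at 3.13 and 4.52 log2, while replicates 1, 2 and 3 lay at 6.35, 5.66 and 6.74 and Tg at 5.39, 5.90 and 5.92. Without both the median was 0.50, 39 of 41 means were higher and 7 members were higher at an unadjusted p below 0.05. The shares of all genes were larger there too, with 56.2% of means higher and 8.39% of genes higher at that p. Without FMTg replicate 4 alone the median of the 41 was 0.09, with 26 means higher (52.7% of all genes), and it was −0.84 and −0.95 without FMTg replicate 1 or 3. With library weights the median was 0.27, and with voom it was −0.27 with 14 means higher (45.7% of all genes). The direction of the group in pancreas therefore differed between these settings.

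Bub1 had 22.6, 41.3 and 32.7 normalised reads in Tg pancreas and 43.4, 21.3, 40.8, 0.0 and 0.0 in FMTg (−1.37 ± 1.10, limma adjusted p = 0.800). A count of 0 allows up to 18.5 normalised reads in FMTg replicate 4 and up to 8.59 in replicate 5 (3 reads divided by the size factor, counting error only), and both limits lie below the lowest Tg value of Bub1. Aurkb (−1.28 ± 1.18), Birc5, the passenger complex subunit survivin (−1.34 ± 1.23), Ttk, a checkpoint kinase (−1.14 ± 1.04), and Plk1 (−0.78 ± 1.19) also had 0 reads in both. The lowest Tg values of Ttk (14.4) and Plk1 (10.3) lie below the limit of FMTg replicate 4, so its 0 does not place them below Tg. Cdc20 had 39.0, 59.3 and 51.4 in Tg and 70.9, 38.7, 101.3, 0.0 and 22.9 in FMTg (−0.79 ± 1.06), and Mad2l1 differed by −0.87 ± 0.76.

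Mki67, Top2a and Tpx2 had reads in every pancreas library. Mki67 had 240.1, 389.4 and 506.8 in Tg and 750.8, 218.4, 879.1, 326.5 and 343.6 in FMTg (0.27 ± 0.47, limma adjusted p = 0.891). Top2a had 279.1, 386.8 and 355.0 in Tg and 530.1, 330.6, 701.0, 215.6 and 131.7 in FMTg (−0.06 ± 0.49). In both genes FMTg replicates 1 and 3 were above every Tg library. Tpx2 had 55.4, 77.4 and 77.1 in Tg and 86.7, 59.9, 143.8, 258.7 and 77.3 in FMTg (0.61 ± 0.52), with its highest value in FMTg replicate 4. Erythroid genes were higher in 6 of 6 (1175.7 to 1665.2 normalised reads in Tg, 3609.4 to 9037.6 in FMTg), 2 of them called, and their part in the result was not tested.

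Ckap2 was the member that passed the threshold for the mean of the 5 tissue effects. It was higher in FMTg in all 5 tissues, a direction that was not particular to it, since Mki67, for example, shared it. The Ckap2 gene lies at chr8:22168160-22185819 (GRCm38, minus strand), and its protein binds and stabilises spindle microtubules. In pancreas it had 22.6, 59.3 and 51.4 normalised reads in Tg and 65.0, 87.0, 155.2, 86.2 and 28.6 in FMTg (0.76 ± 0.59, limma adjusted p = 0.794), with an overlap through FMTg replicate 5. Together with the values above, its change was 1.59 log2 in kidney, 1.50 in ovary, 1.14 in heart, 0.81 in small intestine and 0.76 in pancreas. Groups did not overlap in kidney, ovary and small intestine.

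**Figure D5:**
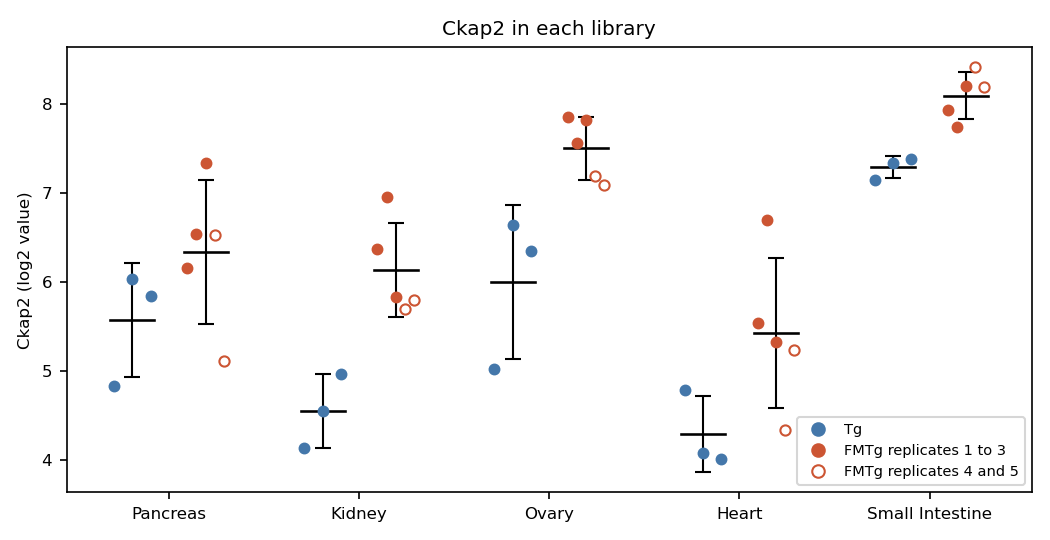
Ckap2 log2 value in each library (y axis) by tissue (x axis); blue points are Tg, filled red points FMTg replicates 1 to 3, and open red points FMTg replicates 4 and 5; bars are the mean and SD of a group (3 Tg, 5 FMTg). Red points lie above all blue points in kidney, ovary and small intestine, and 1 red point lies among the blue ones in pancreas and 1 in heart.

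When all 40 libraries were fitted together, with a random effect for each mouse, the mean of the 5 tissue effects was 1.09 ± 0.27 log2 for Ckap2 (limma adjusted p = 0.0404), the 1 member called, against 0.686% of all genes. The call rested on each of the 3 Tg mice: the adjusted p was 0.579, 0.196 and 0.201 without Tg replicate 1, 2 or 3. It was also lost with voom (0.0634), and without FMTg replicates 4 and 5 it was 0.000162 (1.38). Mki67 (0.83 ± 0.29, adjusted p = 0.252), Tpx2 (0.77 ± 0.30, 0.30) and Incenp (0.39 ± 0.18, 0.372) were the other members higher at an unadjusted p below 0.05, 4 in all, against 5.52% of all genes. The effect was above 0 for 31 of 41 members, with a median of 0.14, against 40% of all genes. That median was 0.05 without Tg replicate 1 and 0.26 without Tg replicate 2.

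The mean over tissues depended on the libraries of FMTg replicates 4 and 5, which were not from the same mice in all tissues. Without them 40 of 41 effects were above 0, the median was 0.48, 28 members were higher at an unadjusted p below 0.05 and 3 were called. The shares of all genes were larger there too, with 55.7% above 0, 7.8% higher at that p and 1.63% called higher. The 3 members were Ckap2, Hmmr (0.96, limma adjusted p = 0.0181) and Spc25 (0.87, 0.0109). Ckap2 and Hmmr were also called with library weights, where 2.54% of all genes were called higher, and Ckap2 and Mki67 without the mouse block, where 1.57% were (Mki67 adjusted p = 0.0315).

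Whether the ovary differed from the other tissues was tested directly, as the ovary effect minus the mean of the other 4. The difference was above 0 for all 41 members, with a median of 0.83 log2, against 49.7% of all genes. At an unadjusted p below 0.05, 8 members were higher, against 3.39% of all genes, and none was called, against 0.0865%. Mki67 had the smallest p (1.96 ± 0.49, limma adjusted p = 0.106), followed by Incenp (0.83 ± 0.30, 0.529), Dlgap5 (1.21 ± 0.45, 0.629) and Tpx2 (1.24 ± 0.50, 0.742). With voom, 11 members were higher at an unadjusted p below 0.05 and 0 were called, against 3.74% and 0.0803% of all genes. With library weights Mki67, Incenp and Dlgap5 were called (adjusted p = 0.0245, 0.0344 and 0.0329), and 1.45% of all genes were called higher in that fit. Without FMTg replicates 4 and 5, 14 members were higher at an unadjusted p below 0.05, against 4.65% of all genes. Without Tg replicate 1 the number was 1 of 41, near the share of all genes (1.76%), and without Tg replicate 3 it was 4, against 2.82%.

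For the small intestine effect minus the mean of the other 4, 19 of 41 differences were above 0 (median −0.02), against 50.9% of all genes, and no member was higher or lower at an unadjusted p below 0.05 (1.59% of all genes were lower). None was called by limma or voom, against 0% of all genes called higher. The 4 members of smallest p were Mad2l1 (0.60 ± 0.45), Tpx2 (−0.59 ± 0.49), Mki67 (−0.55 ± 0.48) and Ckap2 (−0.49 ± 0.44). Without FMTg replicates 4 and 5 a single difference was above 0 (median −0.61), and with library weights 4 were (median −0.40), with 7 members lower at an unadjusted p below 0.05, where 9.91% of all genes were lower in that fit. Both contrasts share the 3 Tg mice, and each contains the other tissue among its 4.

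The other mitotic genes had smaller median differences than the 41 in ovary. In ovary 77 of 102 had higher FMTg means (47.1% of all genes), with a median of 0.33 log2, 18 were higher at an unadjusted p below 0.05 (4.43% of all genes) and none was called. The 2 of smallest p were Smc1a, a core subunit of cohesin, with a mean of 746.6 normalised reads in Tg and 1520 in FMTg (1.02 ± 0.16, limma adjusted p = 0.268), and Smc2, a core subunit of condensin (1.32 ± 0.32, 0.402). In both, every FMTg library was above every Tg library. For the ovary effect minus the others, Smc3, the partner of Smc1a in the cohesin ring, was called (0.86 ± 0.18, 0.0480), and Smc1a was just outside (0.94 ± 0.21, 0.0554). The Smc3 call was lost without any 1 of the 3 Tg mice.

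In the other tissues, higher means numbered 71 of 102 in small intestine, 51 of 101 in heart, 45 of 100 in kidney and 26 of 102 in pancreas, with none called. The shares of all genes with higher means were 42.3%, 48.6%, 42.5% and 45.4%, so heart and kidney were near them, small intestine above and pancreas below. Kidney had Kifc1, a minus-end directed spindle motor, at the smallest p (1.19 ± 0.27, limma adjusted p = 0.146), then Haus4 (−0.49). Pancreas had Chmp4b, a membrane scission protein (−0.70 ± 0.18, 0.219), and Zwint, a kinetochore protein (−0.72 ± 0.25, 0.440). Heart had Pttg1, the separase inhibitor securin (−0.49), and Cdc16 (0.25), and small intestine had Cenpt (0.53) and Spdl1 (0.54).

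Of 20 regulators of these genes (Rb family, E2F, MuvB core, Mybl2, Foxm1, NF-Y and Cdkn1a), Cdkn1a was called in kidney, where its mean was 243.7 normalised reads in Tg and 2092 in FMTg (3.02 ± 0.24, limma adjusted p = 0.000504). It was also called in pancreas (1.77 ± 0.29, 0.0337), a call lost without any 1 of the 3 Tg libraries and without 4 of the 5 FMTg libraries. The change was 2.00 ± 0.51 in small intestine (0.990), 1.14 ± 0.47 in ovary (0.749) and 0.79 ± 0.18 in heart (0.641), and the mean of the 5 effects was 1.83 ± 0.24 (5.81e-06). In the tissue with the largest Cdkn1a change, kidney, the 41 mitotic genes had a median change of 0.08 log2. In ovary, where their median was 0.84, the Cdkn1a means were 590.7 in Tg and 1232 in FMTg. None of the other 19 regulators was called in a tissue. The next smallest p among them belonged to Rb1 in ovary (0.44) and to Rbl2 (p130) in heart (−0.39) and small intestine (−0.23).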

How the data were processed

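The deposited table holds log2 values that the authors variance-stabilised over all 40 libraries. Per the submitters' processing notes, STAR 2.6.0b and DESeq2 were used, with the build GRCm38. The counter, annotation and strand setting are not given in the sources used here. Inverting the transformation gave whole reads for 100% of the values (tolerance 0.01), and normalised reads are these divided by the authors' size factor.

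In each tissue, 3 Tg and 5 FMTg libraries were compared on the deposited log2 values with limma 3.58.1 (R 4.3.3; mean-variance trend, two-sided), over genes with a mean at least 1 above the lowest value of 1.65. A call is a Benjamini-Hochberg adjusted p below 0.05 over all genes tested (15262 to 16486). Effects across tissues came from 1 model of 40 libraries with a random effect of mouse (statmod 1.5.0, correlation 0.249). Scripts were tested on simulated data. Tissues of the same Tg mouse deviated together weakly (correlations of −0.195 to 0.435).

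Members and lists were chosen with earlier results of these data known. Named in each tissue were the 6 members of smallest p and Mki67, Top2a, Bub1, Plk1, Aurkb and Cdc20, in each difference the 4 of smallest p, and the leading other mitotic genes and regulators. Further ovary members, Spc25, Mad2l1 and Smc3 were named after their values were seen. Alternatives were no trend, library weights, voom with TMM, log2 of TMM-scaled CPM plus a pseudocount of 1, other filters (none, or 3 above the lowest value), a replicate block, no mouse block, a joint model, and leaving out libraries.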

Additional observations from a re-analysis of the deposited data

Results flagged for a closer look

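In each tissue the FMTg libraries were screened for a single library far from the other 4, for each of the 41 genes and their mean, that is in 210 groups. A gap of more than 0.71 of the range of the group was seen in 14. A rate of 1 in 20 would give 10.5 of 210 if the groups were independent. The genes of a tissue share its FMTg libraries, so they are not independent, and the 14 cannot be tested against that figure. FMTg pancreas replicate 4 was the low library for 7 genes: Nuf2, Knl1, Bub1b, Kif4 and Ect2 lay at 1.653 log2, the value of a gene with 0 reads, and Dlgap5 and Anln at 3.536. FMTg pancreas replicate 5 was low for Racgap1 (3.476). In FMTg kidney replicate 4, Kif20b was high (7.971 log2, 244.6 normalised reads against 44.6 to 66.6 in the other FMTg kidneys), while Kif2c (3.067) and Aspm (3.654) were low. FMTg heart replicate 2 was high for Kif23 (6.962) and Prc1 (7.107), and FMTg small intestine replicate 2 was low for Kif23 (8.464).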

How the results depend on the processing

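In the single tissues no member was called by limma, and leaving out any 1 library called none (0 to 0), for the other mitotic genes as well. Library weights called 1 member in kidney (Ckap2, 1.68, adjusted p = 0.0122) and 1 in small intestine (Ckap2, 0.63, 0.0465), where 192 and 36 genes in all were called higher, and the joint model of 40 libraries called 1 in ovary (Mki67). For the mean of the 5 effects, the 1 member called became 2 with library weights, 0 with voom, 3 without FMTg replicates 4 and 5, 2 without the mouse block, 0 with the replicate block and 0 to 0 without any 1 Tg mouse. For the ovary difference, library weights called 3 members. The fits that called more members of these effects also called more of all genes higher: for the mean effect 2.54%, 1.63% and 1.57% with library weights, without FMTg replicates 4 and 5 and without the mouse block, against 0.686%.

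Of the other mitotic genes, 1 was called in pancreas with library weights and 1 with the joint model. In kidney 1 was called with library weights, 1 without FMTg replicates 4 and 5 and 1 with the replicate block, and in ovary the joint model called 4. For the mean of the 5 effects 2 were called with library weights, 2 without FMTg replicates 4 and 5 and 1 without the mouse block. For the ovary difference the 1 called became 0 without the trend, 7 with library weights, 0 with voom, 2 with the stricter filter, 0 without the mouse block and 0 to 0 without any 1 Tg mouse. The cause of these moves was not tested. The 40 member calls in Tg small intestine numbered 39 to 41 over all settings.

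Tg and FMTg libraries of the same number came from different mice. Their deviations correlated between −0.587 and 0.592 over 15 pairs, 6 were over 0.1, and 4 libraries correlated best with their own number, so the numbers do not pair the libraries. With the replicate block, in which FMTg replicates 4 and 5 have no partner, the median change of the 41 was 0.50 in pancreas, 0.16 in kidney, 1.07 in ovary, 0.57 in heart, −0.06 in small intestine, 0.75 for the mean of 5 effects, 0.91 for the ovary difference and −0.03 for the small intestine difference. The block left 10 members in ovary at an unadjusted p below 0.05, and for Ckap2, mean of the 5 tissue effects, it gave 1.59 with an adjusted p of 0.0593. For the Tg tissues it called the same number, 40, with a median of 2.51. The 3 Tg mice and the few reads per mitotic gene in kidney, heart and pancreas limit what these libraries can show.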
